A study of Mus musculus with 16 samples.

Results

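The comparison described here is SR-3420 against vehicle in mouse brown adipocytes that received no inhibitor, 4 RNA-seq samples of the 16 in the series. The members were taken from the sample labels: SR-3420 replicates 1 and 3 and vehicle replicates 2 and 3. After 3 h, the read counts of 607 of 12786 tested genes were higher with SR-3420 and those of 357 were lower. The raised genes included early-response transcription factors (Fos, Egr1, Atf3), targets of the ATF4 stress response (Fgf21, Ddit3), hypoxia-inducible factor targets (Slc2a1, Egln3), the fatty acid-responsive genes Plin2, Angptl4 and Pdk4, and extracellular matrix genes. The lowered genes included the pro-apoptotic Bmf, the prostaglandin F receptor gene Ptgfr, enzymes of fatty acid oxidation, lipogenesis and cholesterol synthesis, and interferon-response genes such as Igtp and Parp14.

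The cells were BAT-LgT, brown preadipocytes immortalised with the SV40 large T antigen and differentiated in culture, and were treated on day 7. The vehicle group received neither SR-3420 nor an inhibitor, and the SR-3420 group received the compound alone for 3 h, at 10 µM according to the labels; the text of the study gives a higher concentration. The other groups were pretreated for 1 h with 5 µM triacsin C or 50 µM etomoxir and then kept without or with 10 µM SR-3420, with 3 samples per group. Vehicle replicate 1 and SR-3420 replicate 2 were not analysed here. The study describes its replicates as independent experiments, all with this immortalised line. The total counts were 14032494 and 10097582 in vehicle replicates 2 and 3, and 19156037 and 15667121 in SR-3420 replicates 1 and 3, within a range of 9452861 to 25670624 over the 16 samples.

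Adipocytes store triglycerides in lipid droplets, and adipose triglyceride lipase (ATGL, the product of Pnpla2) starts their breakdown. Its coactivator ABHD5 is held at the droplet by perilipin until adrenergic signalling through protein kinase A releases it. SR-3420 is an ABHD5 ligand that frees ABHD5 from perilipin directly and so activates lipolysis without that signal. The fatty acids set free can be activated to acyl-CoA by synthetases, which triacsin C inhibits, and enter mitochondria through CPT1, which etomoxir inhibits. Fatty acids are also ligands of PPAR nuclear receptors.

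Values below are normalised read counts, that is, deposited counts divided by each sample's effective library size and scaled to the mean over the 16 samples. They are given first for vehicle replicates 2 and 3 and then for SR-3420 replicates 1 and 3. Fold changes are log2 values of SR-3420 over vehicle with their standard error (SE), and "raised" or "lowered" means an adjusted p under 0.05 (edgeR quasi-likelihood test, Benjamini-Hochberg adjustment). With 2 samples against 2, a gene that did not pass cannot be taken as unchanged.

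The markers of brown adipocytes were present, with very low levels of Ucp1 and Dio2. Other thermogenic markers were more abundant, such as Cox8b (1960, 1410, 851 and 866), Ppargc1a (725, 745, 874 and 820) and Cidea (339, 156, 503 and 336). Of 18 markers 17 were tested, and 2 of them, Cox8b and Pparg, were lowered; the median log2 fold change over the markers was −0.12. The summed marker counts were 366000 and 323000 with vehicle and 289000 and 243000 with SR-3420, and the most abundant marker was Fabp4 (91900, 104000, 60700 and 75400). Ucp1, the uncoupling protein of brown fat, had only 28.1, 6.57, 34.4 and 29.9 counts, and Dio2, which makes active thyroid hormone, was at 0 in both vehicle samples and at 1.68 and 1.81 with SR-3420. In bulk samples such as these, fewer cells of a type and less RNA per cell cannot be told apart. Markers of 3 other kinds of cell were low. Those of muscle cells summed to 300, 172, 267 and 216, led by Des, with Myf5 and Pax7 at 0; those of leucocytes to 205, 172, 252 and 209, led by Cd14; and those of endothelial cells to 52.1, 42, 78.1 and 63.3, led by Vwf. No marker of these 3 lists passed the test.

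Of the 4 compared samples, SR-3420 replicate 1 had the steepest trend of counts with the GC content of transcripts. Its median log2 deviation from the mean of the 16 samples ran from −0.52 in the genes of lowest GC content to 0.40 in those of highest, with tested genes divided into 5 equal classes. The same medians ran from −0.32 to 0.22 in vehicle replicate 2, from 0.28 to −0.26 in vehicle replicate 3, and from 0.03 to −0.03 in SR-3420 replicate 3. The median log2 fold change between the groups ran from −0.23 to 0.20 over the same classes. With this trend removed from each sample, a correction added after the data were seen, 1566 genes were raised and 1473 lowered, so that 51.5% of calls were raised against 63% without it. Of the uncorrected calls, 574 of the 607 raised and 340 of the 357 lowered genes were kept.

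**Figure D1:**
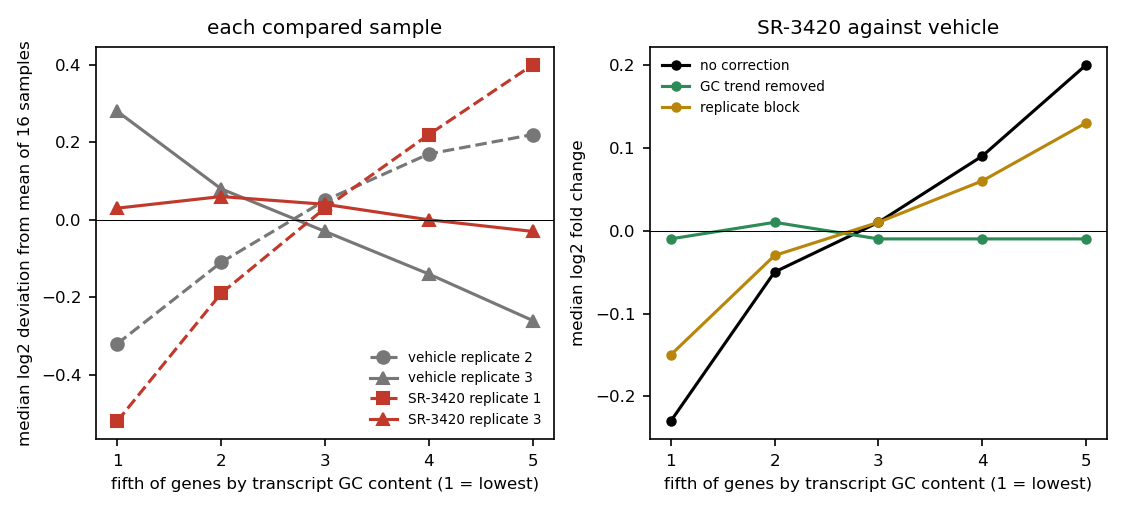
Left, median log2 deviation of each compared sample from the mean of all 16 samples (y axis) for genes divided into 5 classes by transcript GC content (x axis, lowest to highest); right, median log2 fold change of SR-3420 over vehicle by the same classes, without correction, with the trend removed, and with the replicate number as a term. SR-3420 replicate 1 runs from −0.52 to 0.40, the steepest of the 4 lines.

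SR-3420 raised 607 genes (4.75% of those tested) and lowered 357 (2.79%). A change of at least 2-fold was reached by 299 raised genes (2.34%) and 131 lowered ones (1.02%). The counts depended on every library. Without vehicle replicate 2, 257 genes were raised and 85 lowered. Without vehicle replicate 3 there were 194 and 112, without SR-3420 replicate 1 there were 272 and 69, and without SR-3420 replicate 3 there were 364 and 140. The corresponding 2-fold counts were 209 and 66, 148 and 74, 197 and 46, and 251 and 94. The median log2 fold change over all tested genes was 0.00. Other counts used below have other backgrounds. At an unadjusted p under 0.05, 12.1% of tested genes were higher and 9.7% lower. DESeq2 called 7.31% raised and 5.62% lowered. On simulated data more of its calls were false than of those by edgeR. Those data were drawn with the spread that edgeR had estimated and held no GC trend or replicate effect. They therefore cannot decide which test is nearer the truth in these samples. With the GC trend removed the shares were 12.4% and 11.7%. The 2-fold raised genes had a median transcript GC content of 53.6%, against 49.2% for the lowered genes and 50.7% for all tested genes. Fold changes followed GC content in these samples, and among 2-fold genes called with the trend removed the medians were closer, 52.3% and 50.3%. The median genomic span of 2-fold genes was 15800 bases for raised and 19700 for lowered, against 21700 for all genes, but over all called genes it was 23100 and 22200. Median counted lengths of the 2-fold genes were 3050 and 2940 bases, against 2790 for all genes. The 2-fold lowered genes had a median of 49.8 normalised counts per kilobase, against 207 for the 2-fold raised and 158 for all tested genes, while over all called genes the medians were 149 for lowered and 298 for raised.

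The largest increases belonged to genes of mostly low vehicle level that encode secreted factors, enzymes and stress regulators. This ranking is limited to 2-fold calls with a mean normalised count of at least 50 and groups that do not overlap. Ch25h, the enzyme that makes 25-hydroxycholesterol, went from 40.6 and 42.1 counts with vehicle to 874 and 679 with SR-3420 (log2 fold change 4.23, SE 0.30, adjusted p = 5.63e-06). Fgf21, a hormone of fasting and stress, went from 12.5 and 7.88 to 141 and 131 (3.70, SE 0.24, adjusted p = 3.8e-06). Atf3, a stress-induced transcription factor, went from 207 and 194 to 2330 and 2700 (3.64, SE 0.18, adjusted p = 3.48e-07). In each of these genes both SR-3420 samples lay far above both vehicle samples. Has1, a hyaluronan synthase, had 46.9 and 18.4 counts with vehicle and 322 and 325 with SR-3420 (3.28, SE 0.44, adjusted p = 0.000693). The peptide gene Adm2 had 13.5 and 7.88 against 108 and 104 (3.26, SE 0.33, adjusted p = 0.000102), and the cytokine gene Lif had 36.5 and 18.4 against 270 and 245 (3.20, SE 0.35, adjusted p = 0.000182). Both are secreted signals. Gdf15, a circulating stress cytokine, rose from 794 and 367 to 5750 and 3340 (2.97, SE 0.48, adjusted p = 0.00252), and the semaphorin gene Sema3g from 58.3 and 49.9 to 426 and 417 (2.95, SE 0.35, adjusted p = 0.000324). These calls held with any of the 4 samples left out. The 12 genes with the largest increases also held Gm13889, whose call was lost without vehicle replicate 3 (adjusted p = 0.0672).

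**Figure D2:**
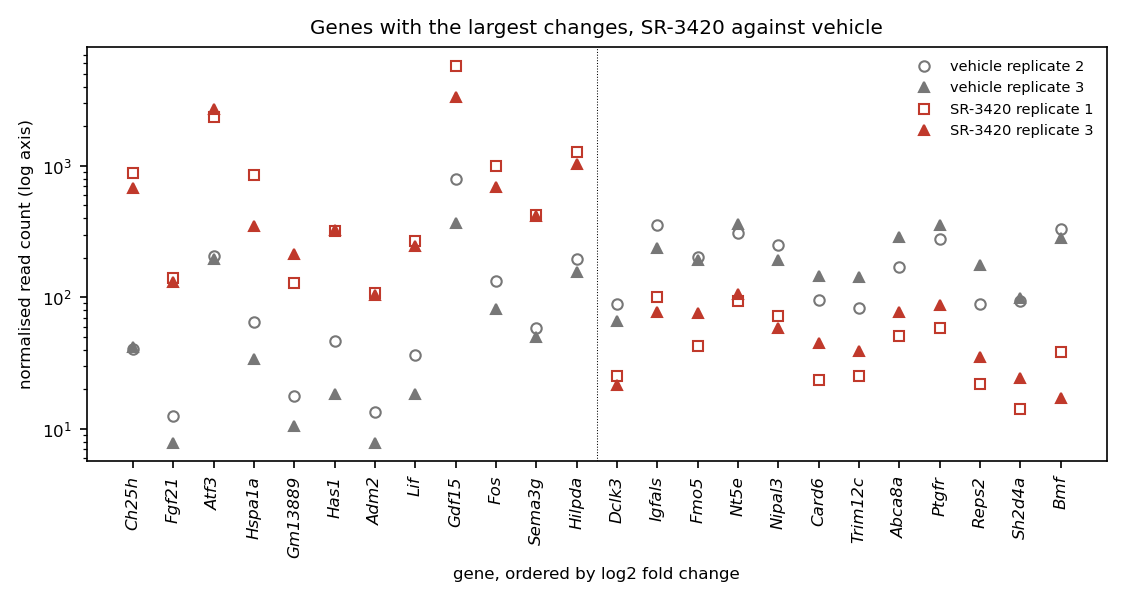
Normalised read counts (log axis) in each of the 4 samples for the 12 genes with the largest increase and the 12 with the largest decrease, ordered by log2 fold change. Genes were chosen among 2-fold calls with a mean normalised count of at least 50 and groups that do not overlap. They run from Ch25h (874 and 679 against 40.6 and 42.1) to Bmf (38.6 and 17.2 against 328 and 284).

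Promoter windows of 6 raised genes are printed because each holds a motif that was searched; they were chosen for that, so their matches are a description. The windows run from 250 bases before to 50 after the start of the gene and come from RefSeq (GRCm38.p6), on the strand of the gene, with the motif in capitals. The motifs were searched on both strands in 27025 windows of the same length. The cAMP response element TGACGTCA was found in 1.77% of them, the core TGATGCAA of the amino acid response element in 0.925%, the E-box CACGTG in 7.02% and the SRF CArG box in 0.148%. Ch25h and Has1 hold the cAMP response element at −61 and −83, counted from the start to the first base of the motif. Atf3 and Fgf21 hold the amino acid response core at −110 and −139, read as TTGCATCA on the printed strand. Fgf21 and Gdf15 hold an E-box at −50 and −83, and Dusp5, a phosphatase described below, holds a CArG box at −72. The capitals of no printed window overlap.
Ch25h, chr19:34475099-34475398, minus strand: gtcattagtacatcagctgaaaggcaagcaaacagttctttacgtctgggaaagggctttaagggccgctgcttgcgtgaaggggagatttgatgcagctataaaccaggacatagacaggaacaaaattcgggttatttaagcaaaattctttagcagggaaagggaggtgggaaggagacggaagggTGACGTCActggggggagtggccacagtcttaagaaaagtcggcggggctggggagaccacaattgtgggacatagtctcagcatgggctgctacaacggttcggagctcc
Has1, chr17:17855139-17855438, minus strand: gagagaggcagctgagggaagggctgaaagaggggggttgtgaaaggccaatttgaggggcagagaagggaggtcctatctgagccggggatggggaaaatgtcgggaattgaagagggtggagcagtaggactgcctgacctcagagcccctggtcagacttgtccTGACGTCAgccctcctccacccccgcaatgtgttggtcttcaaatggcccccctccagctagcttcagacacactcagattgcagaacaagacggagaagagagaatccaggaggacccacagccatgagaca
Atf3, chr1:191183284-191183583, minus strand: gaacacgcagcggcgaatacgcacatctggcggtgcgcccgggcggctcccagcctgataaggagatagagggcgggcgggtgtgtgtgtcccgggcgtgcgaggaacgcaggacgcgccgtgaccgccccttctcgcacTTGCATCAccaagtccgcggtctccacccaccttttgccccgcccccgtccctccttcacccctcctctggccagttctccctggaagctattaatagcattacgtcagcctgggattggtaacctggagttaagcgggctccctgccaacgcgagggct
Fgf21, chr7:45615441-45615740, minus strand: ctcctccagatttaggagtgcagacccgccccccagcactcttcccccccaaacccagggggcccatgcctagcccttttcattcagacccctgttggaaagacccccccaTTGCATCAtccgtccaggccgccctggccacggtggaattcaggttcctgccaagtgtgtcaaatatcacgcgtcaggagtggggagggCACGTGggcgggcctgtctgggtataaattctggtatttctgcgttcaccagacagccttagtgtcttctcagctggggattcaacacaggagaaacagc
Gdf15, chr8:70632046-70632345, minus strand: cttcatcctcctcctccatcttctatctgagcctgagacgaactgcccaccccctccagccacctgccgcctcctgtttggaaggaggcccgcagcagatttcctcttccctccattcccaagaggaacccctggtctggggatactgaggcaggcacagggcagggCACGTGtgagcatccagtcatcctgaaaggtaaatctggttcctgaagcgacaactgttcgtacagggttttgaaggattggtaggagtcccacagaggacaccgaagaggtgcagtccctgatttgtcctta
Dusp5, chr19:53528895-53529194, plus strand: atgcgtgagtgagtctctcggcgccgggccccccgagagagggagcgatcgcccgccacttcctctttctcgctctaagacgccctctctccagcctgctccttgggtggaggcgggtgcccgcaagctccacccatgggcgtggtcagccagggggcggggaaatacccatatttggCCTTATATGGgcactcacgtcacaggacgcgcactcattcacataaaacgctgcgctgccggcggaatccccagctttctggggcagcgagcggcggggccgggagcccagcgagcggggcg
Shares for the motifs without a printed window were 0.574% for the unfolded protein response element TGACGTGG, 0.126% for the ER stress element, 0.57% for heat shock elements and 2.95% for the antioxidant response element. They were 0.0481% for the PPAR element, 0.562% for the EGR element GCGTGGGCG, 0.233% for NF-kB elements and 0.992% for the D-box TTATGTAA. A comparison of motif shares between raised and lowered genes was void, since windows were at hand for only 74.6% of the 2-fold raised and 71% of the 2-fold lowered genes, under the 80% set as the minimum.

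Most early-response transcription factors rose. Of 37 tested members of this list 24 were raised (64.9%, against 4.75% of all tested genes), 21 of them at least 2-fold, and the list's median log2 fold change was 1.55 against 0.00 over all genes. This list and those below were chosen with earlier results of these data known. Their shares are therefore a description and not an independent test. Fos, a subunit of AP-1, went from 134 and 81.5 counts to 1000 and 685 (2.96, SE 0.31, adjusted p = 0.000117). Egr1, a zinc finger factor induced by growth signals, went from 1320 and 1270 to 7230 and 7450 (2.51, SE 0.18, adjusted p = 6.01e-06). Myc went from 1370 and 1150 to 5350 and 4980 (2.04, SE 0.19, adjusted p = 5.37e-05). All 3 calls held with any sample left out. Fosl1 was raised as well (2.23, SE 0.29, adjusted p = 0.000622) but overlaps Ccdc85b, and since the strand used in counting was not stated, reads of the pair cannot be told apart. Among 14 tested Klf genes, another family of zinc finger factors, 4 were raised (28.6%), and 2 without vehicle replicate 2, vehicle replicate 3 or SR-3420 replicate 1. They included Klf4 (391 and 308 against 1220 and 1340) and Klf5 (118 and 78.8 against 365 and 371), both kept with any sample left out.

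Several genes that restrain MAP kinase signalling rose beside them. In the list of MAP kinase phosphatases and Sprouty/Spred genes 8 of 17 were raised (47.1%), with a median of 1.12, and the count was 8 with any of the 4 samples left out. Dusp5, a phosphatase of nuclear ERK, went from 704 and 421 to 3780 and 2940 (2.58, SE 0.37, adjusted p = 0.00104). Spry2, an inhibitor of receptor tyrosine kinase signalling, went from 428 and 330 to 2130 and 1730 (2.35, SE 0.23, adjusted p = 5.75e-05). Dusp1 went from 985 and 654 to 4220 and 2770 (2.09, SE 0.34, adjusted p = 0.00229). Over the whole family of 21 tested Dusp genes, 7 were raised (33.3%). Of 11 tested EGF-family ligands and receptors 4 were raised (36.4%, median 0.70): the ligands Areg, Ereg and Hbegf and the receptor Egfr. Hbegf went from 536 and 385 to 2090 and 2160 (2.20, SE 0.19, adjusted p = 3.01e-05). Areg had only 2.08 and 3.94 counts with vehicle and 59.6 and 111 with SR-3420, and no fold is given at so low a vehicle level. The count of raised EGF-family genes was 2 without vehicle replicate 2, vehicle replicate 3 or SR-3420 replicate 3.

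The integrated stress response, in which ATF4 drives amino acid transport, tRNA charging and secreted signals, had 30 raised members of 50 tested (60%) and a median of 0.81. It also had 1 lowered member, the alanine transaminase gene Gpt2, whose call was lost without vehicle replicate 2, vehicle replicate 3 or SR-3420 replicate 1 (adjusted p = 0.172, 0.0645 and 0.224). Without vehicle replicate 2, vehicle replicate 3, SR-3420 replicate 1 and SR-3420 replicate 3 the raised counts were 20, 15, 21 and 17. Ddit3, which encodes CHOP, went from 1800 and 1240 to 7440 and 6430 (2.19, SE 0.30, adjusted p = 0.000791), although it overlaps Mars and reads of the pair cannot be told apart. Ppp1r15a, a regulatory subunit that reverses eIF2α phosphorylation, went from 658 and 513 to 2270 and 2850 (2.13, SE 0.20, adjusted p = 4.09e-05). Atf4 itself had 6510 and 6540 counts with vehicle and 8900 and 11600 with SR-3420 (0.65, SE 0.14, adjusted p = 0.0143). Its call was lost with the GC trend removed (adjusted p = 0.0702) and without vehicle replicate 2, vehicle replicate 3 or SR-3420 replicate 3 (adjusted p = 0.092, 0.093 and 0.113).

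Some chaperone genes were raised. Of 46 tested genes for ER chaperones, folding and ER-associated degradation 7 were raised (15.2%) with a median of 0.05, and 2, 1, 3 and 1 were raised without vehicle replicate 2, vehicle replicate 3, SR-3420 replicate 1 and SR-3420 replicate 3. Hspa5, the major ER chaperone, went from 12700 and 11900 to 32700 and 22500 (1.16, SE 0.18, adjusted p = 0.0016), a call that held with any sample left out. Xbp1, a transcription factor of the unfolded protein response, had overlapping counts of 2260, 2810, 1800 and 3080 (−0.06, SE 0.30, adjusted p = 0.937). Of 30 cytosolic heat shock genes 5 were raised (16.7%), and 4, 1, 1 and 5 in the same order of samples left out. Hspa1a went from 64.6 and 34.2 to 848 and 346 (3.58, SE 0.57, adjusted p = 0.00203). Hspa1b went from 795 and 463 to 5230 and 1820, a call lost without vehicle replicate 3 (adjusted p = 0.121) or SR-3420 replicate 1 (adjusted p = 0.132). The pair is nearly identical in sequence, so how reads were split between them is uncertain. SR-3420 replicate 1 was the higher sample in both.

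About as many targets of hypoxia-inducible factors were raised as not, although oxygen was not a variable of the design. Of 38 tested hypoxia-inducible factor targets 20 were raised (52.6%), 18 of them at least 2-fold, with a median of 1.09. Slc2a1, the glucose transporter GLUT1, went from 2790 and 1780 to 12700 and 9280 (2.26, SE 0.31, adjusted p = 0.000815). Egln3, a prolyl hydroxylase that marks HIF for degradation, went from 780 and 720 to 4020 and 4220 (2.46, SE 0.32, adjusted p = 0.000633). Hilpda, a droplet protein that inhibits ATGL, went from 194 and 155 to 1280 and 1030 (2.73, SE 0.20, adjusted p = 7.58e-06). All 3 calls held with any sample left out. Hif1a had 1560, 2350, 1940 and 3220 counts and did not pass (0.40, SE 0.43, adjusted p = 0.656). Epas1, which encodes HIF-2α, was the 1 lowered member (2450 and 1900 against 1260 and 953; −0.98, SE 0.19, adjusted p = 0.00705); its call was lost without vehicle replicate 2 (adjusted p = 0.0794) or SR-3420 replicate 3 (adjusted p = 0.071).

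In the list of glucose uptake, glycolysis and pyruvate entry 11 of 42 genes were raised (26.2%) and 2 lowered (4.76%), with a median of 0.26. Without vehicle replicate 3 the raised count was 6. Slc16a3, the lactate exporter MCT4, went from 259 and 166 to 1140 and 897 (2.26, SE 0.29, adjusted p = 0.000633). Slc2a3, another glucose transporter, went from 69.8 and 44.7 to 141 and 180 (1.48, SE 0.22, adjusted p = 0.0013). The raised members thus included genes of glucose import and lactate export, and also Pdk4, a kinase that inhibits pyruvate dehydrogenase. Pdk4 went from 1450 and 1450 to 7760 and 6070 (2.25, SE 0.21, adjusted p = 4.28e-05). The lowered members were Pfkfb1 (−0.52, SE 0.14, adjusted p = 0.0444), a bifunctional enzyme of fructose-2,6-bisphosphate, and Pdpr (−0.59, SE 0.15, adjusted p = 0.0345), a subunit of pyruvate dehydrogenase phosphatase. Both calls were lost with any of the 4 samples left out (Pfkfb1, adjusted p = 0.214, 0.111, 0.206 and 0.125; Pdpr, adjusted p = 0.177, 0.0982, 0.23 and 0.0755, without vehicle replicates 2 and 3 and SR-3420 replicates 1 and 3).

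PPAR targets included a few large increases. Of 54 tested members 8 were raised (14.8%), each at least 2-fold, and 1, Acadvl, was lowered (1.85%), with a median of −0.02. At an unadjusted p under 0.05, 11 were higher and 7 lower, and with the GC trend removed 9 were raised and 8 lowered. The Acadvl call was lost with any of the 4 samples left out (adjusted p = 0.227, 0.0773, 0.177 and 0.131 without vehicle replicates 2 and 3 and SR-3420 replicates 1 and 3). The raised count was 5 without vehicle replicate 3 or SR-3420 replicate 1. Plin2, the droplet coat protein that follows fatty acid load, went from 7030 and 4720 to 28900 and 21600 (2.10, SE 0.26, adjusted p = 0.000421). Angptl4, a secreted inhibitor of lipoprotein lipase, went from 3360 and 2730 to 12800 and 13200 (2.10, SE 0.14, adjusted p = 3.82e-06). Both are far apart between the groups and were called with any sample left out. Cpt1a, the gate of mitochondrial fatty acid import, went from 941 and 866 to 2140 and 1700 (1.09, SE 0.23, adjusted p = 0.0123). That call was lost without vehicle replicate 2, vehicle replicate 3 or SR-3420 replicate 1 (adjusted p = 0.0711, 0.103 and 0.105).

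Core genes of lipolysis, Pnpla2, Lipe and Abhd5, did not pass the test. Pnpla2, which encodes ATGL, had 42900, 26300, 38700 and 23200 counts (−0.16, SE 0.37, adjusted p = 0.852). Lipe, which encodes hormone-sensitive lipase, had 25300, 17300, 28200 and 19200 (0.15, SE 0.32, adjusted p = 0.833). Abhd5, the target of the compound, had 2140, 2530, 1530 and 2080 (−0.37, SE 0.24, adjusted p = 0.409). The groups overlapped for Pnpla2 and Lipe, while both SR-3420 values of Abhd5 lay below both vehicle values. Among 18 lipases and lipase regulators 1 was raised, Angptl4, and 2 were lowered. The lowered ones were Pnpla3, a droplet lipase homologue (3660 and 2980 against 1510 and 1130; −1.34, SE 0.24, adjusted p = 0.00416), and the carboxylesterase gene Ces1d. The Ces1d call (−0.98, SE 0.21, adjusted p = 0.0138) was lost without vehicle replicate 2, vehicle replicate 3 or SR-3420 replicate 1 (adjusted p = 0.0592, 0.0946 and 0.142). Of 17 droplet proteins 2 were raised, Plin2 and Hilpda, and 1, Ces1d, was lowered. Plin1 had 26300, 17000, 25800 and 16400 counts (−0.04, SE 0.37, adjusted p = 0.97). Of 27 genes of triglyceride synthesis and fatty acid activation 2 were raised (7.41%) and 1 lowered (3.7%), shares near those of all genes; 1, 0, 1 and 2 were raised, and the lowered call was lost each time, without vehicle replicate 2, vehicle replicate 3, SR-3420 replicate 1 and SR-3420 replicate 3.

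A part of the extracellular matrix and cytoskeletal genes was raised. Of 75 tested collagen and matrix genes 23 were raised (30.7%), with a median of 0.68; 41 were raised with the GC trend removed, and 7, 7, 9 and 15 without vehicle replicate 2, vehicle replicate 3, SR-3420 replicate 1 and SR-3420 replicate 3. Adamts1, a matrix protease, went from 662 and 728 to 1900 and 1890 (1.45, SE 0.22, adjusted p = 0.00157), a call kept with any sample left out. Tnc, the matrix glycoprotein tenascin C, went from 5880 and 5210 to 22500 and 13200 (1.69, SE 0.37, adjusted p = 0.0143). It was not called without vehicle replicate 2, vehicle replicate 3 or SR-3420 replicate 1 (adjusted p = 0.0823, 0.117 and 0.134). The fibrillar collagen gene Col1a1 had 17200 and 14000 against 44200 and 29700 and did not pass (1.24, SE 0.42, adjusted p = 0.0946), but did with the GC trend removed (adjusted p = 0.00244). Of 38 targets of SRF and YAP and actin genes 11 were raised (28.9%, median 0.65), and 2, 4, 5 and 7 in the same order. Fhl1, a LIM-domain gene, went from 368 and 386 to 819 and 683 (0.99, SE 0.15, adjusted p = 0.00155), kept with any sample left out.

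Markers of preadipocytes and stromal cells were higher in sum, though only 1 passed the test. Of 13 markers 11 were tested and 1, S100a4, was raised (5130 and 4060 against 9010 and 7960; 0.89, SE 0.25, adjusted p = 0.0488). That call was lost with any of the 4 samples left out (adjusted p = 0.104, 0.284, 0.227 and 0.0956 without vehicle replicates 2 and 3 and SR-3420 replicates 1 and 3). The median over the markers was 0.74, and their summed counts were 61500 and 48500 with vehicle and 125000 and 88700 with SR-3420. The most abundant was Vim, with 29400, 21100, 58300 and 38600 counts (0.94, SE 0.34, adjusted p = 0.113, and 0.00597 as adjusted p with the GC trend removed). With that trend removed, Col1a1, Thy1 and Dlk1 passed the edgeR test too (adjusted p = 0.00244, 0.0163 and 0.0315). With the replicate number as a term in the model, Col1a1, Vim, Thy1 and Dlk1 passed (adjusted p = 0.00212, 0.00268, 0.0104 and 0.0113). Of 6 mural cell markers 3 were tested, with sums of 9260, 7140, 17700 and 14300 led by Acta2, smooth muscle actin (7820, 6180, 15200 and 12700; 1.00, SE 0.29, adjusted p = 0.0536). With the GC trend removed Acta2 passed (adjusted p = 0.0249). Rgs5, the pericyte marker, was at 0 in both vehicle samples and at 1.68 and 1.81 with SR-3420. Several of these markers are themselves matrix or cytoskeletal genes. The part of the makeup of the cultures in the matrix and actin results was not tested.

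Genes of prostaglandin and cytokine signalling were mostly raised where they changed. Of 21 tested prostaglandin genes 6 were raised (28.6%) and 1 lowered, and 3, 2, 2 and 5 were raised without vehicle replicate 2, vehicle replicate 3, SR-3420 replicate 1 and SR-3420 replicate 3. Ptgs2, the inducible cyclooxygenase, went from 716 and 788 to 2550 and 4350 (2.20, SE 0.36, adjusted p = 0.0027). Ptgs1, its constitutive counterpart, went from 672 and 640 to 1330 and 1430 (1.07, SE 0.14, adjusted p = 0.000638). Both calls held with any sample left out. Of 39 inflammatory cytokine, chemokine and NF-kB feedback genes 8 were raised (20.5%, median 0.71), and 4 without vehicle replicate 3. Tnfaip2 went from 2330 and 2090 to 5210 and 4900 (1.19, SE 0.18, adjusted p = 0.00169), kept with any sample left out, and the neutrophil chemokine gene Cxcl1 from 52.1 and 43.4 to 140 and 128 (1.48, SE 0.27, adjusted p = 0.00458), lost without vehicle replicate 3 (adjusted p = 0.0645).

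A minority of genes in several signalling and growth lists were raised. Of 51 TGF-beta, BMP, ID and SMAD genes 6 were raised (11.8%), and 3 with any of the 4 samples left out. Inhba, the activin A subunit, went from 1430 and 1050 to 4570 and 4270 (1.83, SE 0.29, adjusted p = 0.00213). Of 43 adrenergic and cAMP genes 6 were raised (14%) and 1 lowered, with 3, 3, 4 and 4 raised without vehicle replicate 2, vehicle replicate 3, SR-3420 replicate 1 and SR-3420 replicate 3. Pde1b, a phosphodiesterase, went from 183 and 151 to 389 and 403 (1.24, SE 0.19, adjusted p = 0.00169). The adrenergic receptor gene Adrb3 had 12200, 7770, 11000 and 6510 counts and did not pass (−0.19, SE 0.38, adjusted p = 0.826). Of 78 homeobox and developmental factors 7 were raised (8.97%) and 2 lowered (2.56%), with 2, 2, 3 and 3 raised in the same order. No lowered gene of these 2 lists kept its call with any sample left out. Sox9, a factor of progenitor and cartilage cells, went from 1030 and 812 to 3580 and 2940 (1.82, SE 0.20, adjusted p = 0.000187). Of 73 ribosome biogenesis genes 10 were raised (13.7%, median 0.40), and 3, 1, 4 and 6 in the same order. With the GC trend removed 34 of them were raised, where the share over all genes was 12.4%.

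**Figure D3:**
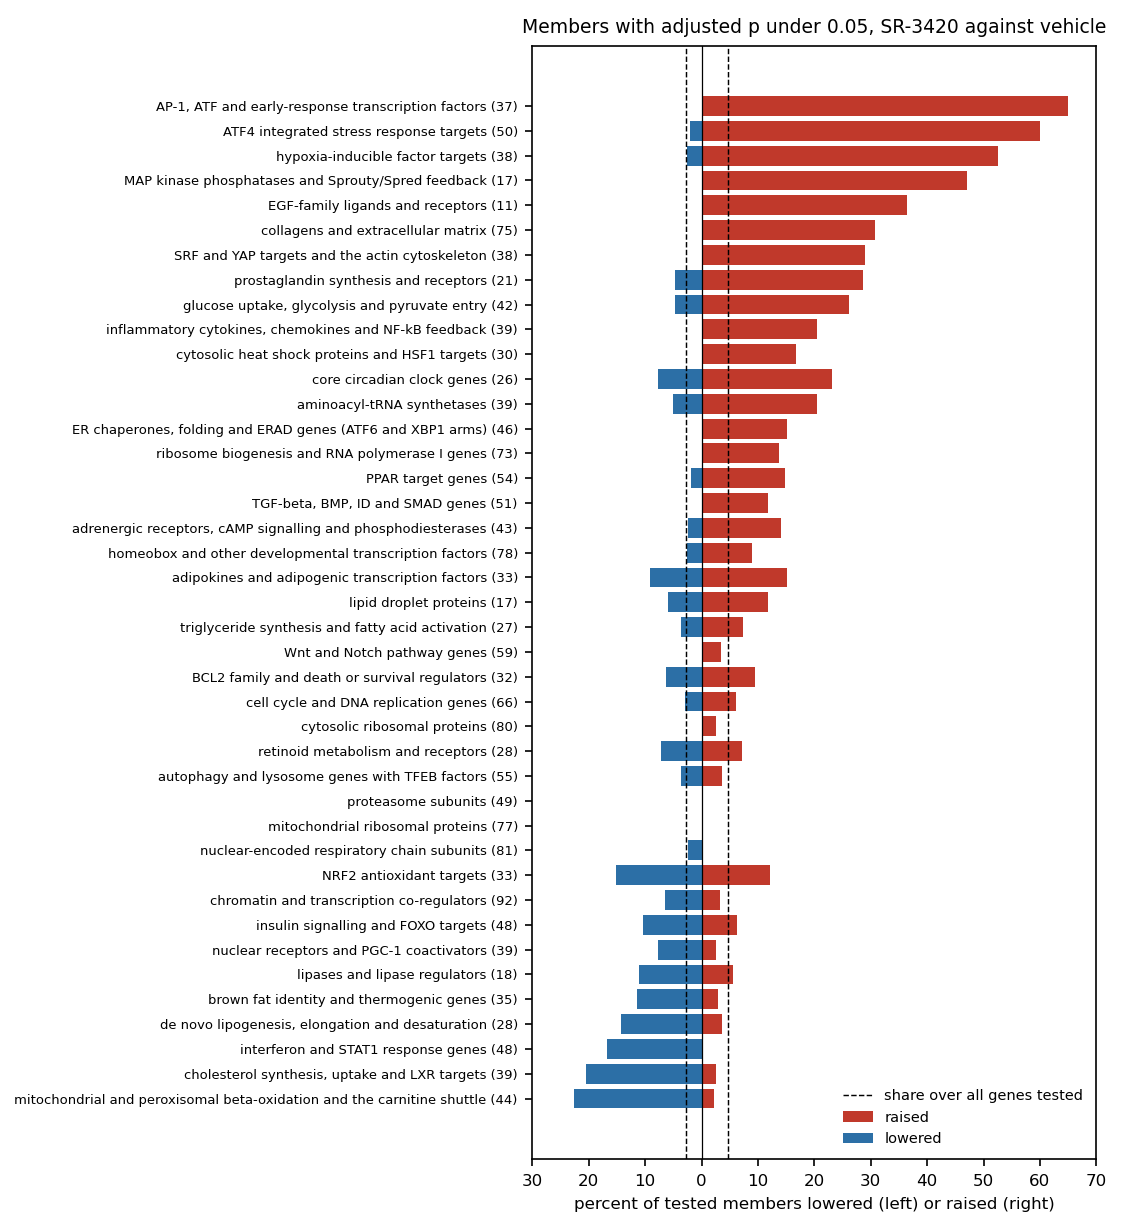
Percent of tested members with an adjusted p under 0.05 (x axis), lowered to the left and raised to the right of 0, for each of the 41 gene lists, with the number of tested members in brackets. The lists were chosen with earlier results of these data known. Dashed lines mark the shares over all 12786 tested genes, 2.79% lowered and 4.75% raised; the longest bars are early-response factors (64.9% raised) and beta-oxidation (22.7% lowered).

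Among the lowered genes, ranked under the same limits as the raised ones, Bmf had the largest decrease. Bmf encodes a BH3-only protein that antagonises BCL2 survival proteins, and it went from 328 and 284 counts with vehicle to 38.6 and 17.2 with SR-3420 (−3.44, SE 0.32, adjusted p = 4.09e-05). Its gene lies on chromosome 2 (mm9 chr2:118354493-118375414, minus strand) and overlaps no other gene of the table. Ptgfr, the receptor of prostaglandin F2α, went from 278 and 353 to 58 and 87.7 (−2.11, SE 0.26, adjusted p = 0.000451). Nt5e, the ecto-enzyme CD73 that makes adenosine, went from 307 and 363 to 94.1 and 106 (−1.74, SE 0.27, adjusted p = 0.00169). Nipal3, a putative magnesium transporter, went from 249 and 191 to 72.2 and 58.8 (−1.74, SE 0.29, adjusted p = 0.00272). These 4 calls held with any sample left out. The other genes among the 12 largest decreases did not keep theirs throughout. Sh2d4a went from 93.8 and 98.6 to 14.3 and 24.4 (−2.31, SE 0.42, adjusted p = 0.00454) and was lost without SR-3420 replicate 1 (adjusted p = 0.0696). Igfals, which encodes a serum protein of insulin-like growth factor complexes, went from 352 and 238 to 100 and 77.8 (−1.73, SE 0.34, adjusted p = 0.00772). Its call was lost without vehicle replicate 2 or SR-3420 replicate 3. In the list of BCL2-family and death or survival genes, 2 of 32 were lowered (6.25%), Bmf among them, and 3 raised (9.38%). Without vehicle replicate 2, vehicle replicate 3, SR-3420 replicate 1 and SR-3420 replicate 3, 3, 0, 1 and 3 members were raised and 1 was lowered each time.

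Enzymes of fatty acid oxidation were among the lowered genes. Of 44 genes of mitochondrial and peroxisomal beta-oxidation and the carnitine shuttle 10 were lowered (22.7%, against 2.79% of all tested genes), and 1, Cpt1a, was raised. The median was −0.50. The lowered count was 2 without vehicle replicate 2, vehicle replicate 3 or SR-3420 replicate 1, and 5 without SR-3420 replicate 3; with the GC trend removed it was 26. Hacl1, a peroxisomal lyase that shortens 2-hydroxy and branched fatty acids, went from 1160 and 1140 to 412 and 475 (−1.37, SE 0.18, adjusted p = 0.000633). Acox3, a peroxisomal acyl-CoA oxidase, went from 2100 and 1930 to 1060 and 1000 (−0.96, SE 0.16, adjusted p = 0.00317). Both were kept with any sample left out. Echs1, the mitochondrial enoyl-CoA hydratase, went from 4960 and 4750 to 2520 and 2900 (−0.84, SE 0.18, adjusted p = 0.014), and was lost without vehicle replicate 2, vehicle replicate 3 or SR-3420 replicate 1 (adjusted p = 0.0831, 0.0714 and 0.13). The summed brown adipocyte markers, carried by abundant genes such as Fabp4, were lower too (366000 and 323000 against 289000 and 243000), though their median log2 fold change was only −0.12, while the sums of preadipocytes and stromal cells were higher (61500 and 48500 against 125000 and 88700). The part of the makeup of the cultures in the lowered metabolic genes was not tested.

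Lipid synthesis genes fell in part. Of 39 genes of cholesterol synthesis, uptake and LXR targets 8 were lowered (20.5%), with a median of −0.44, and Ch25h was the 1 raised member. The lowered counts were 1, 2, 3 and 4 without vehicle replicate 2, vehicle replicate 3, SR-3420 replicate 1 and SR-3420 replicate 3, and 21 with the GC trend removed. Dhcr7, which completes cholesterol synthesis, went from 1520 and 1290 to 881 and 710 (−0.82, SE 0.19, adjusted p = 0.0179). It was lost without vehicle replicate 2, vehicle replicate 3 or SR-3420 replicate 3 (adjusted p = 0.128, 0.0517 and 0.12). Fdft1, squalene synthase, went from 1700 and 1640 to 788 and 993 (−0.91, SE 0.16, adjusted p = 0.00423); it was lost without SR-3420 replicate 1 (adjusted p = 0.0642), and it overlaps Ctsb, so reads of the pair cannot be told apart. Of 28 genes of lipogenesis, elongation and desaturation 4 were lowered (14.3%), and 1 with any sample left out. Among them was Scd2, a desaturase, at 50600 and 61300 against 27200 and 31800 (−0.92, SE 0.26, adjusted p = 0.0448; adjusted p = 0.0933, 0.245, 0.263 and 0.104 without vehicle replicates 2 and 3 and SR-3420 replicates 1 and 3). Its relative Scd1 was the most abundant gene, with 3.43% and 4.23% of all counts in vehicle and 1.97% and 2.18% in SR-3420 samples, and did not pass (−0.77, SE 0.29, adjusted p = 0.14).

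Some interferon-response genes fell, with none raised. Of 48 tested members 8 were lowered (16.7%), 5 of them at least 2-fold, and the median was −0.46; at an unadjusted p under 0.05, 13 were lower and 0 higher. DESeq2 called 11 lowered and 0 raised. Over all genes 9.7% were lower at an unadjusted p under 0.05, and DESeq2 called 5.62% lowered. The lowered count was 4 without vehicle replicate 2, 1 without vehicle replicate 3, 2 without SR-3420 replicate 3 and 0 without SR-3420 replicate 1, where 10 were lower at an unadjusted p under 0.05. Igtp, a GTPase induced by interferon gamma, went from 233 and 268 to 91.6 and 95 (−1.42, SE 0.26, adjusted p = 0.00501; 0.0544 as adjusted p without SR-3420 replicate 1). Parp14, an ADP-ribosyltransferase of the same response, went from 356 and 440 to 144 and 191 (−1.25, SE 0.22, adjusted p = 0.00411), lost without vehicle replicate 3 or SR-3420 replicate 1 (adjusted p = 0.0507 and 0.0638). The guanylate-binding protein genes Gbp3 and Gbp7 lie side by side on chromosome 3 (mm9 chr3:142223016-142236176 and chr3:142193300-142213115, plus strand) and resemble each other, so their reads may be shared. Gbp7 had 180 and 301 against 75.6 and 88.7 (−1.55, SE 0.34, adjusted p = 0.0156), lost without vehicle replicate 3, SR-3420 replicate 1 or SR-3420 replicate 3 (adjusted p = 0.16, 0.131 and 0.0658). Irgm2 and Gm12250, on chromosome 11 near Igtp and named after their values were seen, had 282 and 410 against 65.5 and 147, and 34.4 and 51.3 against 8.4 and 10.9. Irf1, an upstream factor, had 547, 413, 650 and 309 counts (0.00, SE 0.38, adjusted p = 1).

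Some genes of insulin signalling and FOXO targets were lowered. Of 48 members of this list 5 were lowered (10.4%) and 3 raised (6.25%), with a median of −0.14. The lowered counts were 3, 3, 2 and 2 and the raised ones 2, 1, 2 and 1 without vehicle replicate 2, vehicle replicate 3, SR-3420 replicate 1 and SR-3420 replicate 3. Sesn1, a sestrin that restrains mTORC1, went from 680 and 679 to 299 and 305 (−1.17, SE 0.17, adjusted p = 0.00104). Fbxo32, a ubiquitin ligase of atrophy, went from 278 and 311 to 138 and 119 (−1.20, SE 0.20, adjusted p = 0.00323). In both, the 2 groups lay apart with little spread within them, and the calls held with any sample left out. The raised members were Trib3, Pdk4 and Sgk1, of which Pdk4 is also a FOXO target. Insr, the insulin receptor, had 4250 and 4290 against 3600 and 2900 and did not pass (−0.40, SE 0.18, adjusted p = 0.213).

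**Figure D4:**
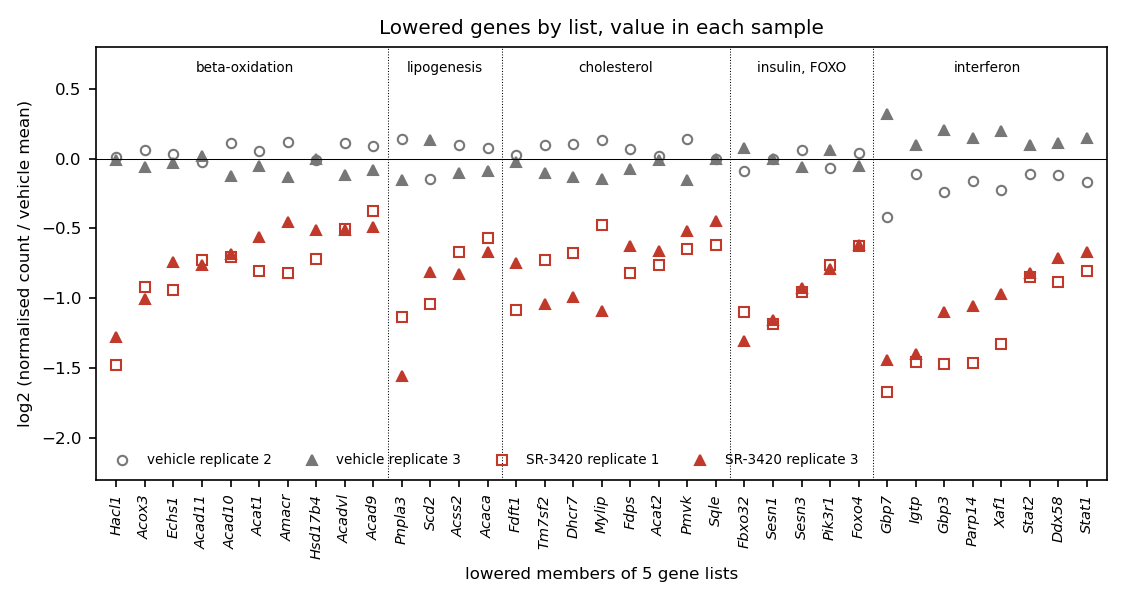
Log2 of the normalised count over the mean of the 2 vehicle samples (y axis) in each of the 4 samples, for the lowered members of 5 gene lists (x axis), grouped by list; a gene in several lists is shown once. The SR-3420 samples lie below 0 throughout, as the choice of lowered genes sets; Sesn1 (299 and 305 against 680 and 679) is among the tightest.

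Single brown fat genes and transcriptional regulators were lowered. Of 35 genes of brown fat identity and thermogenesis 4 were lowered (11.4%) and 1 raised, Fgf21, with a median of 0.20, and 5 were higher and 5 lower at an unadjusted p under 0.05. The lowered counts were 1, 2, 1 and 1 without vehicle replicate 2, vehicle replicate 3, SR-3420 replicate 1 and SR-3420 replicate 3. Irf4, a factor of the thermogenic programme, went from 1190 and 1250 to 607 and 593 (−1.02, SE 0.14, adjusted p = 0.00073), kept with any sample left out. Pparg, the master regulator of adipocytes, went from 4410 and 4970 to 2390 and 2920 (−0.82, SE 0.21, adjusted p = 0.0327). That call was lost with any sample left out (adjusted p = 0.09, 0.187, 0.242 and 0.0683 in the same order). Pparg was 1 of 3 lowered genes in the 39 nuclear receptors and coactivators (7.69%), where 1 was raised. Ppargc1a, the coactivator PGC-1α, had 725, 745, 874 and 820 counts (0.20, SE 0.29, adjusted p = 0.742). Of 92 chromatin and transcription co-regulators 6 were lowered (6.52%) and 3 raised (3.26%). Hexim1, which holds the elongation factor P-TEFb inactive, went from 2540 and 2290 to 1480 and 1260 (−0.81, SE 0.12, adjusted p = 0.00145), kept with any sample left out. The lowered counts of nuclear receptors were 0, 1, 1 and 0 and those of chromatin genes 1, 2, 1 and 1 in the same order, where 1, 1, 2 and 2 chromatin genes were raised.

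Antioxidant genes were split in direction. Of 33 NRF2 targets 4 were raised (12.1%) and 5 lowered (15.2%), with a median of −0.22. Hmox1, haem oxygenase 1, went from 3540 and 3260 to 13000 and 15800 (2.08, SE 0.17, adjusted p = 1.86e-05). Aox1, an aldehyde oxidase, went from 949 and 866 to 385 and 375 (−1.26, SE 0.14, adjusted p = 0.000233). Both calls held with any sample left out, while the list's counts fell to 2, 1, 2 and 2 raised and 2, 3, 1 and 3 lowered without vehicle replicate 2, vehicle replicate 3, SR-3420 replicate 1 and SR-3420 replicate 3. Of 33 adipokines and adipogenic factors 5 were raised (15.2%) and 3 lowered (9.09%), the lowered ones being Retn, Pparg and Cdo1. Cdo1, cysteine dioxygenase, went from 11900 and 12700 to 4860 and 5480 (−1.25, SE 0.22, adjusted p = 0.00358), lost without SR-3420 replicate 1 (adjusted p = 0.0509). The lowered count of this list was 1, 1, 0 and 1 in the same order.

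Mitochondrial and protein turnover lists had few calls by the edgeR test. Of 81 nuclear-encoded respiratory chain subunits 2 were lowered (2.47%, near the 2.79% of all genes), with a median of −0.25; 0, 1, 0 and 1 were lowered without vehicle replicate 2, vehicle replicate 3, SR-3420 replicate 1 and SR-3420 replicate 3. More were lower by other counts: 19 at an unadjusted p under 0.05, with 1 higher, 11 called lowered by DESeq2, and 23 with the GC trend removed. The shares lowered over all genes by these 3 counts were 9.7%, 5.62% and 11.7%. The edgeR quasi-likelihood test called 0 of 77 mitochondrial ribosomal proteins, whose median was −0.22; 12 were lower and 0 higher at an unadjusted p under 0.05, and DESeq2 called 3 lowered. It called 0 of 49 proteasome subunits (median −0.13), with 3 lower and 0 higher at an unadjusted p under 0.05 and 1 lowered by DESeq2.

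The response was next set beside SR-3420 given with an inhibitor. Those samples were in neither group of the comparison without inhibitor, but its spread was estimated from them too. With triacsin C present, SR-3420 raised 2208 genes (17.3% of those tested) and lowered 2514 (19.7%). In the etomoxir arm it raised 1597 (12.5%) and lowered 1637 (12.8%). In each arm the response was a ratio to the inhibitor alone, whose level is not given here. These arms had 3 samples per group, so more calls were possible in them. Of the 607 genes raised without inhibitor, 534 were also raised with triacsin C (88%) and 572 with etomoxir (94.2%). Of the 357 lowered, 275 were also lowered with triacsin C (77%) and 335 with etomoxir (93.8%). The difference in response was tested directly, and with triacsin C it passed for 30 of the raised and 31 of the lowered genes, of which 23 and 24 responded less or in the opposite direction; over all tested genes 321 differed (2.51%). Because the genes were chosen by their response without inhibitor, and the same samples enter the difference, a weaker response with it is favoured by the choice. With etomoxir the same edgeR test found 0 of the 607 and 0 of the 357, with 41 and 18 at an unadjusted p under 0.05. Over all 12786 tested genes it found 0, with 307 at an unadjusted p under 0.05. Ptgfr is an example with triacsin C, at −2.11 without and −0.08 with it (difference 2.04, adjusted p = 0.00977). Egln3 is another, at 2.46 without and −0.50 with it (difference −2.96, adjusted p = 0.00317). Ch25h responded at 4.67 with triacsin C and 4.70 with etomoxir, against 4.23 without an inhibitor, and neither difference passed (0.45, adjusted p = 0.542, and 0.47, adjusted p = 0.988).

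**Figure D5:**
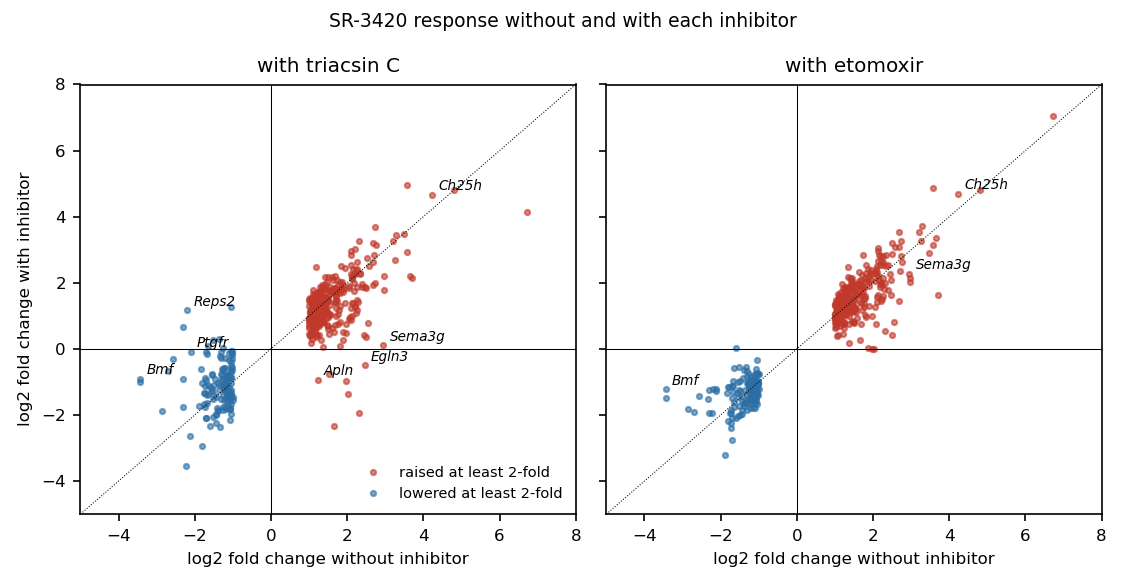
Log2 fold change by SR-3420 with triacsin C (left) or etomoxir (right) on the y axis against that without inhibitor on the x axis, 1 point for each of the 299 genes raised and 131 lowered at least 2-fold without inhibitor; the dotted line marks equal response. Genes were chosen by their x value. Egln3 and Ptgfr lie near 0 with triacsin C (−0.50 and −0.08).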

How the data were processed

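RNA-seq read counts per gene were deposited by the authors as raw counts for 20295 genes in 16 samples of 6 groups. According to the study's methods and the submitters' processing notes, reads were aligned with STAR 2.4.2a to mm9, summarised with HOMER with 1 read kept per position and length, and counted over genes with iRNA-seq; whether counting used strand was not stated. Total counts per sample ran from 9452861 to 25670624, which sets the counting precision of low genes. Groups were taken from the labels, and every count column belonged to a labelled sample.

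SR-3420 (2 samples) was compared with vehicle (2 samples) by the edgeR 4.0.16 quasi-likelihood test in R 4.3.3, with TMM normalisation, the filterByExpr filter by group (12786 genes kept) and 1 model of 6 groups over all 16 samples, so that the spread was estimated from all groups; a lone sample is then assumed to vary like the others. p-values were Benjamini-Hochberg adjusted over all tested genes, and genes under 0.05 were called. The response to SR-3420 with and without an inhibitor was compared by an interaction contrast in the same model. Scripts were tested on simulated data. Alternatives were DESeq2 1.42.0 size factors and Wald test, other count filters, only the 4 samples, the replicate number as a block, each sample left out, only replicate 3, and overlapping genes left out. Removal of a transcript GC trend (spline with 5 degrees of freedom, for the 98.9% of tested genes with a GC value) was added after seeing the data. Figures were drawn with Python 3.11.15 and matplotlib 3.10.9.

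Genes were named by rule: the 12 largest changes per direction among 2-fold calls with a mean normalised count of at least 50 and groups that do not overlap; in each of 41 gene lists up to 4 called members per direction and the first 3 as written; up to 3 called members per direction of symbol families of at least 10 genes; cell type markers; and up to 6 genes with a searched promoter motif. Members and lists were chosen with earlier results of these data known. Promoter windows were matched by RefSeq accession for 79.4% of tested genes.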

Additional observations from a re-analysis of the deposited data

Results flagged for a closer look

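The log2 response to SR-3420 differed between cells with and without triacsin C for 21 of the genes that SR-3420 changed without inhibitor and that were named for the size of the change or as called members of a list, by the edgeR quasi-likelihood test of the difference in response itself, with Benjamini-Hochberg adjustment over all 12786 tested genes. Of these, 19 responded less with the inhibitor or in the opposite direction, and 2 responded more. The genes were chosen by their response without inhibitor, whose samples also enter the difference, so a weaker response with the inhibitor is favoured by the choice. Further genes named for other reasons also passed this test and are not given here.

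Among the raised genes, 5 that encode stress or lipid metabolism factors responded less with triacsin C while still above 0, though others of this kind, such as Ddit3 and Plin2, did not pass. The 5 were Fgf21 (3.70 without and 2.13 with triacsin C, difference −1.57, adjusted p = 0.014), Atf3 (3.64 without and 2.20 with triacsin C, difference −1.45, adjusted p = 0.00494), Pdk4 (2.25 without and 1.19 with triacsin C, difference −1.07, adjusted p = 0.0486), Angptl4 (2.10 without and 0.87 with triacsin C, difference −1.23, adjusted p = 0.00362) and Hmox1 (2.08 without and 0.97 with triacsin C, difference −1.11, adjusted p = 0.0167). The feedback inhibitor Spry4 and the regulator Arid5a also did. Their values were Spry4 (1.59 without and 0.62 with triacsin C, difference −0.97, adjusted p = 0.00823) and Arid5a (1.65 without and 0.51 with triacsin C, difference −1.14, adjusted p = 0.0488). Each value with triacsin C is a ratio to triacsin C alone, whose level is not given here. According to the paper, the inhibitors did not impair induction of Pdk4 and Plin2 by SR-3420, and triacsin C alone raised such genes modestly.

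Other raised genes were near or below 0 with triacsin C, again as a ratio to triacsin C alone. These were Sema3g (2.95 without and 0.12 with triacsin C, difference −2.83, adjusted p = 0.00626) and Egln3 (2.46 without and −0.50 with triacsin C, difference −2.96, adjusted p = 0.00317). The apelin gene and the Wnt receptor gene followed, with Apln (1.23 without and −0.93 with triacsin C, difference −2.17, adjusted p = 0.0107) and Fzd5 (0.86 without and −0.52 with triacsin C, difference −1.37, adjusted p = 0.0154).

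Among lowered genes, some had a much smaller decrease relative to triacsin C alone. As for the raised genes, the level with triacsin C alone is not given here. Whether these genes were already lower with it is thus not shown. These were Bmf (−3.44 without and −0.90 with triacsin C, difference 2.54, adjusted p = 0.00669), Ptgfr (−2.11 without and −0.08 with triacsin C, difference 2.04, adjusted p = 0.00977) and Irf4 (−1.02 without and −0.20 with triacsin C, difference 0.83, adjusted p = 0.0293). In others the value with triacsin C was above 0, namely Reps2 (−2.20 without and 1.17 with triacsin C, difference 3.37, adjusted p = 0.0177) and Sh2d4a (−2.31 without and 0.66 with triacsin C, difference 2.97, adjusted p = 0.0145). The same held for the regulators Jarid2 (−0.54 without and 1.34 with triacsin C, difference 1.88, adjusted p = 0.00123), Ncoa2 (−0.69 without and 0.80 with triacsin C, difference 1.49, adjusted p = 0.00144) and Esr1 (−0.97 without and 0.99 with triacsin C, difference 1.96, adjusted p = 0.00869). The lowered genes with a larger decrease were Acadvl (−0.51 without and −1.40 with triacsin C, difference −0.89, adjusted p = 0.0215) and Hexim1 (−0.81 without and −2.02 with triacsin C, difference −1.20, adjusted p = 0.00289). What sets these genes apart was not tested. Some of these genes keep their call without inhibitor only with all 4 samples. Without vehicle replicates 2 and 3 and SR-3420 replicates 1 and 3 the adjusted p was 0.128, 0.112, 0.0531 and 0.105 for Apln, 0.227, 0.0773, 0.177 and 0.131 for Acadvl, 0.17, 0.17, 0.134 and 0.186 for Jarid2, and 0.17, 0.0709, 0.183 and 0.0909 for Esr1. Others lost it in part: Fzd5 without vehicle replicate 2, vehicle replicate 3 or SR-3420 replicate 1 (adjusted p = 0.083, 0.151 and 0.225), Reps2 without vehicle replicate 3, SR-3420 replicate 1 or SR-3420 replicate 3 (adjusted p = 0.154, 0.153 and 0.0508), Ncoa2 without vehicle replicate 2 or SR-3420 replicate 3 (adjusted p = 0.0529 and 0.0505), and Sh2d4a without SR-3420 replicate 1 (adjusted p = 0.0696).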

How the results depend on the processing

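The counts depended on the processing. No called named gene changed sign under any alternative run. All 607 raised and 357 lowered genes had groups that do not overlap, and the alternatives reuse the same samples. A change of sign was thus unlikely from the start, and its absence is no test of the directions. Of 331 called named genes 318 stayed called with DESeq2 size factors, 331 with the DESeq2 Wald test, 255 without a count filter and 302 of 307 with overlapping genes left out. With only the 4 compared samples in the fit, which leaves few degrees of freedom, 33 stayed; the counts were 45 raised and 1 lowered, and the same 45 and 1 at 2-fold. With only replicate 3 of each group they were 132 and 14 (2-fold, 127 and 13). With each sample left out in turn the counts ran from 194 to 364 raised, 69 to 140 lowered, 148 to 251 raised 2-fold and 46 to 94 lowered 2-fold, and 124 to 173 named calls stayed. Lowered genes numbered 688 by the DESeq2 Wald test and 210 without a count filter; the cause was not tested. With the GC trend removed, 1566 were raised (12.4% of genes tested so) and 1473 lowered (11.7%, with 267 lowered 2-fold), against 607 and 357 without it. Calls over all genes thus rose by more than 1.5 times too, so a rise of that size is not particular to a list. Some of the list counts below lie above these shares and some under them. That correction moved the counts of many lists by over 1.5 times, or from 0: raised, MAP kinase feedback 13, lipases 2, triglyceride synthesis 4, lipogenesis 2, cholesterol 2, brown fat 2, nuclear receptors 5, adrenergic 12, glycolysis 18, insulin and FOXO 8, clock 10, inflammatory 16, BCL2 family 7, TGF-beta 11, Wnt and Notch 9, homeobox 13, cell cycle 16, matrix 41, ribosomal proteins 6, tRNA synthetases 16, ribosome biogenesis 34, autophagy 10, chromatin 12, retinoid 4 and SRF and YAP 21; lowered, early-response factors 1, EGF family 1, stress response 2, ER chaperones 2, NRF2 targets 12, droplet proteins 2, PPAR targets 8, beta-oxidation 26, triglyceride synthesis 2, lipogenesis 11, cholesterol 21, nuclear receptors 8, adrenergic 2, adipokines 7, glycolysis 9, hypoxia targets 2, insulin and FOXO 18, clock 4, inflammatory 2, interferon 13, prostaglandin 3, BCL2 family 8, TGF-beta 1, Wnt and Notch 6, homeobox 10, matrix 4, respiratory chain 23, mitochondrial ribosomal proteins 5, ribosomal proteins 1, proteasome 1, tRNA synthetases 5, autophagy 9, chromatin 16 and retinoid 5. Samples of the same replicate number deviated together in part: of 35 such pairs 27 had correlations over 0.1 (range −0.29 to 0.83), and 11 of 16 samples correlated best with a sample of their own number. Since not every pair did, and the compared groups share only number 3, the number was not taken as a pairing. With the replicate block the counts were 1423 raised and 1015 lowered (260 lowered 2-fold), and with the block and the GC trend removed together 2177 and 2026 (288 lowered 2-fold); the cause was not tested. With the replicate block, 1121 raised and 746 lowered genes were called the same way with triacsin C, and 1316 and 933 with etomoxir. The difference in response then passed for 147 of the 1423 and 225 of the 1015 with triacsin C, and for 2 and 1 with etomoxir; the 21 differences given above all passed. The block also brought calls that the fit without it lacks, among them Col1a1 (adjusted p = 0.00212), Acta2 (adjusted p = 0.00266) and Vim (adjusted p = 0.00268); 12 respiratory chain subunits were then lowered, and 11 PPAR targets, 19 cell cycle genes and 12 cytosolic ribosomal proteins raised and 10 PPAR targets lowered, beside 11.1% raised and 7.94% lowered of all genes. With 2 samples per group and 10097582 counts in the shallowest of the 4, small changes of low genes may be missed.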

Other observations

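Clock genes and tRNA synthetases changed in both directions. Of 26 core clock genes 6 were raised (23.1%) and 2 lowered (7.69%). Ciart, a repressor of the clock, went from 45.8 and 44.7 normalised counts to 185 and 218 (log2 fold change 2.15, SE 0.21, adjusted p = 6.62e-05), and Bhlhe40 from 1960 and 1890 to 3780 and 4980 (1.19, SE 0.18, adjusted p = 0.00145). The period gene Per3 went from 1530 and 1210 to 655 and 554 (−1.18, SE 0.19, adjusted p = 0.00259), and the PAR bZIP factor Tef from 3520 and 3040 to 1880 and 1990 (−0.76, SE 0.12, adjusted p = 0.00229). These 4 calls held with any sample left out, while the raised count of the list was 4, 3, 4 and 4 without vehicle replicate 2, vehicle replicate 3, SR-3420 replicate 1 and SR-3420 replicate 3. Of 39 aminoacyl-tRNA synthetase genes 8 were raised (20.5%), all of them cytosolic enzymes, and 2 were lowered (5.13%), both mitochondrial (Hars2 and Iars2). Sars went from 3400 and 2980 to 5500 and 6370 (0.90, SE 0.15, adjusted p = 0.00295) and Nars from 3360 and 3160 to 5490 and 6480 (0.88, SE 0.14, adjusted p = 0.00214), kept with any sample left out. The raised counts were 4, 4, 6 and 4 in the same order of samples left out. The lowered counts were 0, 0, 0 and 1.

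Further lists had few calls by the edgeR test, beside 4.75% raised and 2.79% lowered of all genes. Of 66 cell cycle genes 4 were raised (6.06%) and 2 lowered (3.03%), while 15 were higher and 4 lower at an unadjusted p under 0.05, and 16 were raised with the GC trend removed. The shares over all genes were 12.1% and 9.7% at an unadjusted p under 0.05, and 12.4% raised with the trend removed. Of 59 Wnt and Notch genes 2 were raised (3.39%), and of 80 cytosolic ribosomal proteins 2 were raised (2.5%), with a median of 0.29. Of 55 autophagy and lysosome genes 2 were raised and 2 lowered (3.64% each), and of 28 retinoid genes 2 and 2 (7.14% each). The raised counts without vehicle replicate 2, vehicle replicate 3, SR-3420 replicate 1 and SR-3420 replicate 3 were 1, 0, 0 and 2 for cell cycle, 0, 0, 0 and 1 for Wnt and Notch, 1, 0, 0 and 0 for autophagy and 2, 1, 2 and 2 for retinoid genes. Neither raised ribosomal protein gene, nor any lowered gene of the cell cycle, autophagy and retinoid lists, kept its call in any of these 4 fits. Cyp26b1, which clears retinoic acid, went from 76.1 and 71 to 301 and 194 (1.75, SE 0.23, adjusted p = 0.000639), kept with any sample left out. Of the 136 gene families by symbol with at least 10 tested genes, 48 had a lowered member. The Parp family had 3 of 12 lowered (25%, median −0.45), 6 with the GC trend removed and 1 with any of the 4 samples left out. The Trim family had 6 of 46 lowered (13%) and 4 raised (8.7%); without vehicle replicate 2, vehicle replicate 3, SR-3420 replicate 1 and SR-3420 replicate 3, 3, 2, 2 and 3 were lowered and 1, 0, 1 and 3 raised. Trim14 went from 559 and 468 to 208 and 170 (−1.44, SE 0.24, adjusted p = 0.0027), kept with any sample left out.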
